A study of Mus musculus with 4 samples.

Results

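The 9 genes at the top of the Ras pathway that were followed through the loss of an oncogenic Ras are the classical Ras genes Nras and Hras, the related GTPases Rras and Rras2, the exchange factors Sos1, Sos2 and Rasgrp1, and the GTPase-activating proteins Nf1 and Rasa1. They were chosen by name and role, with earlier results of these data known, and make up 9 of the 23235 rows of the deposited expression tables. Of the 9, 8 stood under their own symbols and Hras under its older symbol Hras1, a synonym in the RefSeq list of assembly GRCm38.p6. The samples were bulk RNA from a mouse acute myeloid leukaemia of genotype NRASG12V/Mll-AF9, sequenced in 4 libraries. One library had NRASG12V expression on, and 3 had it off, at 48 h, 72 h and 96 h after doxycycline was started by intraperitoneal injection and drinking water. All 4 groups share the genotype and the host, a SCID/Beige mouse that had received leukaemia cells through the tail vein and had developed overt disease. As background, the SCID defect removes mature T and B cells and the beige defect impairs natural killer cells, so the host keeps its myeloid, erythroid, platelet, endothelial and stromal cells. The labels give the same doxycycline text for every sample, including the on library, whose column is headed 0 hours. No library had doxycycline with the oncogene still on, so drug, elapsed time and oncogene loss cannot be told apart. No source used here gives the promoter of the transgene, the tissue harvested, the ages or the number of mice per library.

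Ras proteins are membrane-bound switches that signal while they hold GTP and rest while they hold GDP. Exchange factors load them with GTP: the Sos proteins act downstream of growth factor receptors through the adaptor Grb2, and the RasGRP proteins respond to diacylglycerol. GTPase-activating proteins, or GAPs, such as neurofibromin (Nf1) and p120 RasGAP (Rasa1) speed the return to GDP. The G12V substitution makes Ras insensitive to GAPs, so the protein stays loaded, and loss of Nf1 or mutation of NRAS is a recurrent event in myeloid leukaemia.

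The substitution in the transgene falls in the phosphate-binding loop, a stretch that all Ras proteins share. The mouse coding sequence of this stretch is shown for Hras, Rras and Rras2, to let the classical and R-Ras genes be compared at the place of the substitution. The bases come from the GENCODE M21 transcripts (GRCm38), run 5′ to 3′ on the coding strand over 16 codons each, and have in capitals the glycine codon that is codon 12 in Hras, codon 38 in Rras and codon 23 in Rras2.
Hras: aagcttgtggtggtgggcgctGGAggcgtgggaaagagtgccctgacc
Rras: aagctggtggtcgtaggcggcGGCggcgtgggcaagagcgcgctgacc
Rras2: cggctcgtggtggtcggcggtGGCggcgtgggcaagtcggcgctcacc
Of the 48 bases, Rras shares 39 with Hras at the same place and Rras2 shares 36. Over the whole coding sequence the longest run of identical bases was 23 between Rras and Rras2, 13 between Hras and Rras, and 11 between Hras and Rras2. The sequence of the NRASG12V transgene is not used here. How many of its reads were assigned to mouse Nras is therefore not known, and the Nras level cannot check the labels.

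Levels are given in FPKM, fragments scaled to transcript length and to depth, on 1 scale for the 4 libraries. The on values differed between the deposited tables by 1 factor per table (1.04, 0.984 and 0.981 at 48 h, 72 h and 96 h). The depth scaling thus did not rest on the mapped reads of that library alone. Changes are log2((off FPKM + 1)/(on FPKM + 1)), taken within the deposited table of each time, and they understate the change of genes with low values. The total depth is unknown, but low values step with whole reads, and the off libraries held 1.15, 1.04 and 1.19 times as many reads per unit of FPKM as the on library at 48 h, 72 h and 96 h. Marker lists moved strongly between libraries. The summed FPKM of 10 pan-leukocyte genes (led by Arhgdib and Cd52) was 3314 on and 2319, 1845 and 1403 at the 3 times, while that of 12 erythroid genes (led by Hbb-b2 and Hbb-b1) was 7332 on and 22734, 34132 and 36737. Immature myeloid genes, led by Mpo and Elane, went from 3064 on to 400.4, 372 and 342, and 6 of 7 fell in the limma test, with Kit at 9.53 FPKM on and 10.5 to 10.7 FPKM off, while 12 of 12 erythroid genes rose. In bulk samples, fewer cells of a type and less RNA per cell cannot be told apart.

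None of the 9 genes reached 2-fold on the log2(FPKM + 1) scale. With 1 library per time there is no replicate check at a single time, and a change was then counted from its size. On that scale 0 of the 9 were at least 2-fold higher or lower at any time, against 9.89% of all genes at 48 h, 12.3% at 72 h and 15.5% at 96 h. A 1.5-fold threshold on the same scale was reached by 1 of the 9, Rasgrp1 at 48 h, which without the added 1 FPKM was at 2.94 times its on level, while 29.8%, 33.2% and 35.6% of all genes reached it at the 3 times. The median change of the 9 genes was 0.02, 0.03 and 0.12 at 48 h, 72 h and 96 h, beside -0.14, -0.07 and -0.06 over all genes.

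The 3 off libraries were then set together against the on library with limma, over 11958 genes reaching 1 FPKM in some library. This treats the differences between times as spread, has 2 residual degrees of freedom and takes the spread of the single on library to be that of the off ones. The labels do not say that the libraries came from separate animals, so the p-values rest on the spread between these samples alone, and that spread may be technical. Of the 9 genes, 0 passed at a Benjamini-Hochberg adjusted p under 0.05 and 0 had an unadjusted p under 0.05, whereas 27.0% and 41.4% of all genes did. All 9 entered the test, but Rasgrp1 passed the filter on low values through the 48 h library alone. The lowest unadjusted p among them was 0.0545, for Nras. All 3 off libraries lay on 1 side of the on library for 6 of the 9, below for Nras and Nf1 and above for Rras2, Sos1, Rasgrp1 and Rasa1. Over all genes tested this share was 79.1%, made of 45.7% below and 33.4% above.

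**Figure D1:**
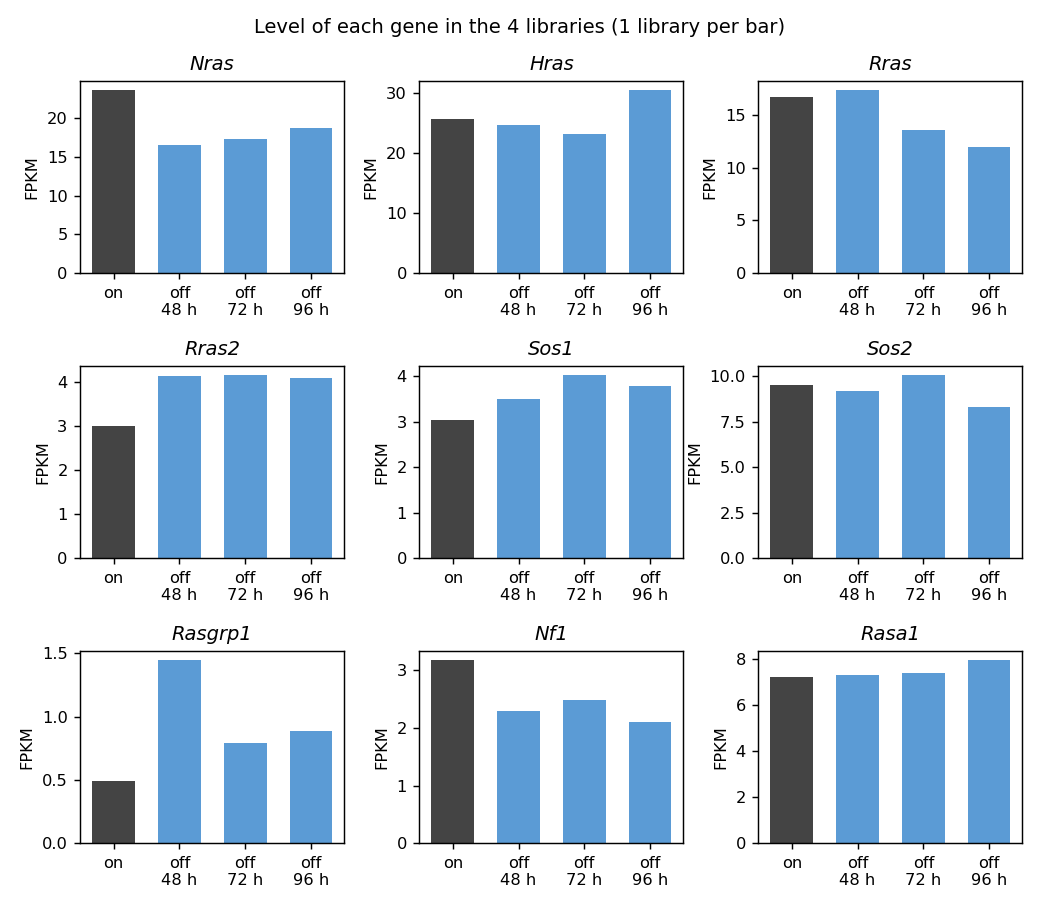
Level of each of the 9 genes in FPKM (vertical axis, from 0, a separate scale per gene) in the on library (dark bar) and the 3 off libraries (blue bars), 1 library per bar and no error bars. Nras and Nf1 stand highest in the on library and Rras2, Sos1, Rasgrp1 and Rasa1 lowest there.

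Nras, the mouse gene of the oncogene's name, measured 23.6 FPKM with the oncogene on, then 16.5, 17.4 and 18.8 FPKM in the 48 h, 72 h and 96 h libraries. These values may include an unknown number of transgene reads, so they cannot be read as the endogenous gene alone, and the part of such reads was not tested. The off libraries did not overlap the on library, and the lowest was the earliest one. Relative to the on library, Nras was at 0.700, 0.736 and 0.795 times its FPKM. The mean log2 difference over the off libraries was -0.41 ± 0.09 (SD, n = 3), with a 95% interval of -0.83 to 0.01 in the limma fit (adjusted p = 0.128), and 47.6% of the genes tested had a larger absolute difference. With the slope of time added as a covariate the adjusted p was 0.0185, so that 1 of the 9 passed, but in that fit the count over all genes went from 3227 to 6024. Pan-leukocyte genes were lowest at 96 h, when Nras was highest among the off libraries. Their part in the Nras difference was not tested.

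Hras, the other classical Ras gene, was the most abundant of the 9 with 25.7 FPKM in the on library and 24.7, 23.3 and 30.5 FPKM in the off libraries, in order of time. Off libraries lay on both sides of the on library, and the 96 h library was the highest. The mean log2 difference was 0.02 ± 0.20 (SD, n = 3), with a 95% interval of -0.47 to 0.50 (limma, adjusted p = 0.963), and became -0.10 without the 96 h library.

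Rras, a relative of the classical Ras genes known for its part in cell adhesion and blood vessel maturation, measured 16.8 FPKM in the on library and 17.4, 13.5 and 12.0 FPKM in the off libraries, in order of time. Only the 48 h library reached the on level. Its mean difference of -0.23 ± 0.25 (SD, n = 3) had a 95% interval of -0.75 to 0.29 (limma, adjusted p = 0.472). Rras2, also called TC21, was lower in abundance, at 2.99 FPKM on and 4.12, 4.14 and 4.08 FPKM off. The 3 off libraries lay within 0.06 FPKM of one another and above the on library, at 0.36 ± 0.01 on the log2 scale (SD, n = 3). The 95% interval of the limma fit was -0.03 to 0.75 (adjusted p = 0.147), since that fit borrows the spread of other genes. Stromal genes, led by Col1a1 and Col1a2, summed to 246 FPKM on and 385, 420 and 257 FPKM at the 3 times, and endothelial genes, led by Pecam1 and Cldn5, to 57.0 FPKM on and 57.2, 52.7 and 52.7 FPKM. Neither list had a gene at 0 in the on library, and their part in the levels of Rras and Rras2 was not tested.

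**Figure D2:**
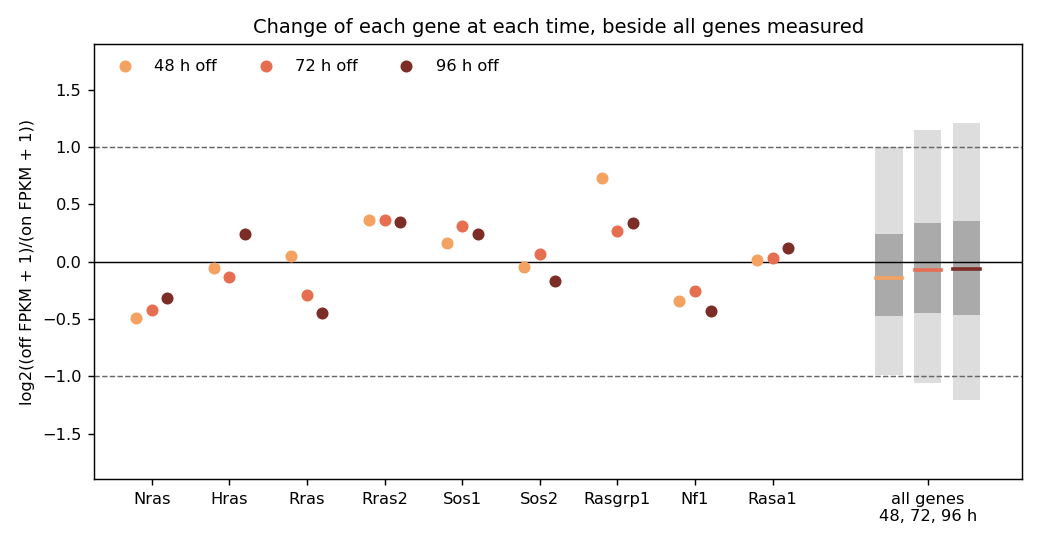
Change of each gene on the scale log2((off FPKM + 1)/(on FPKM + 1)) at 48 h, 72 h and 96 h (points, 1 library each), with 2-fold marked by dashed lines. At the right, grey bars give the central 50% (dark) and 90% (light) of all genes at each time and coloured lines their medians of -0.14, -0.07 and -0.06; every point of the 9 genes lies between the dashed lines.

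Among the exchange factors, Sos1 and Sos2 couple activated growth factor receptors to Ras. Sos2 was the more abundant, at 9.51 FPKM on and 9.18, 10.0 and 8.32 FPKM at 48 h, 72 h and 96 h, with off libraries on both sides of the on library. Its mean log2 difference was -0.05 ± 0.12 (SD, n = 3), with a 95% interval of -0.48 to 0.38 (limma, adjusted p = 0.865), and its sign turned to 0.03 when the median change was set to 0. Sos1 stood at 3.03 FPKM on and 3.50, 4.02 and 3.78 FPKM off. All 3 off libraries were above the on library, by 0.24 ± 0.08 on the log2 scale (SD, n = 3) with a 95% interval of -0.16 to 0.64 (limma, adjusted p = 0.326).

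Rasgrp1, the diacylglycerol-responsive exchange factor best known from T cells, was the least abundant of the 9. Its level was 0.491 FPKM with the oncogene on, and 1.44, 0.793 and 0.885 FPKM in the 48 h, 72 h and 96 h libraries. These are 2.94, 1.62 and 1.80 times the on level without a pseudocount, and 0.73, 0.26 and 0.33 on the log2 scale used here. Its mean difference of 0.44 ± 0.24 (SD, n = 3) was the farthest from 0 among the 9 on this scale, and the 95% interval ran from -0.04 to 0.92 (limma, adjusted p = 0.150). With a pseudocount of 0.1 FPKM it was 0.91 and with 5 FPKM 0.14. It did not keep that rank with 5 FPKM, where Nras stood at -0.34, or after quantile normalization, where Rasgrp1 was at 0.26 and Nf1 at -0.37. The 10 T cell markers, led by Cd3d and Cd247, summed to 15.2 FPKM on and 30.0, 25.5 and 22.1 FPKM off, and of 6 tested 3 rose and 1 fell. Their sum was highest at 48 h as Rasgrp1 was, but was lower at 96 h than at 72 h, where Rasgrp1 was higher at 96 h. Neutrophil markers, led by S100a9 and S100a8, were highest at 48 h too, at 43808 FPKM against 24735 FPKM on. The T cell receptor subunit Cd3e was listed at 0 in the on and 72 h libraries and was at 0.141 FPKM at 48 h and 0.0340 FPKM at 96 h. The part of T cells or of neutrophils in the Rasgrp1 level was not tested.

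The GAPs are given side by side, and their difference was not tested. Nf1, whose product neurofibromin is a tumour suppressor in myeloid leukaemia, measured 3.17 FPKM with the oncogene on and 2.30, 2.49 and 2.10 FPKM in the 48 h, 72 h and 96 h libraries. No off library reached the on level, and the mean log2 difference was -0.34 ± 0.09 (SD, n = 3), with a 95% interval of -0.73 to 0.05 (limma, adjusted p = 0.165). Rasa1 was at 7.23 FPKM on and 7.33, 7.39 and 7.95 FPKM off, a mean difference of 0.06 ± 0.06 (SD, n = 3) with a 95% interval of -0.35 to 0.46 (limma, adjusted p = 0.839). In the RefSeq list of GRCm38.p6, Evi2a and Evi2b lie within the bounds of Nf1. Evi2b was at 44.4 FPKM on and 48.3, 45.7 and 35.8 FPKM off, and Evi2a at 35.1 FPKM on and 34.9, 27.0 and 20.5 FPKM off. Only the bounds of the genes were compared and not their exons. Whether Nf1 shares any counted bases with Evi2a or Evi2b was therefore not examined, and no source used here gives the strand setting of the counting.

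Ratios of genes within a library do not depend on the scale between libraries. The ratio of Nras to Hras was 0.920 on and 0.671, 0.746 and 0.615 at 48 h, 72 h and 96 h. Each off library had less Nras per Hras than the on library, with any transgene reads counted as Nras included. Rras2 per Rras was 0.178 on and 0.237, 0.306 and 0.340 off. Sos1 per Nf1 was 0.954 on and 1.53, 1.61 and 1.80 off. None of these differences was tested, and a ratio does not say which gene of the pair differed. The pairs were not part of the planned comparisons. Sos1 was above the on library in all 3 off libraries and Nf1 below it, so the side of their ratio follows from that pick. It does not describe exchange factors against GAPs as groups. Sos2 had off libraries on both sides of the on library, and its ratio to Rasa1 was not taken. The off libraries averaged 0.677 ± 0.066, 0.294 ± 0.052 and 1.65 ± 0.139 for the 3 pairs (SD, n = 3), and the on library has no replicate.

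**Figure D3:**
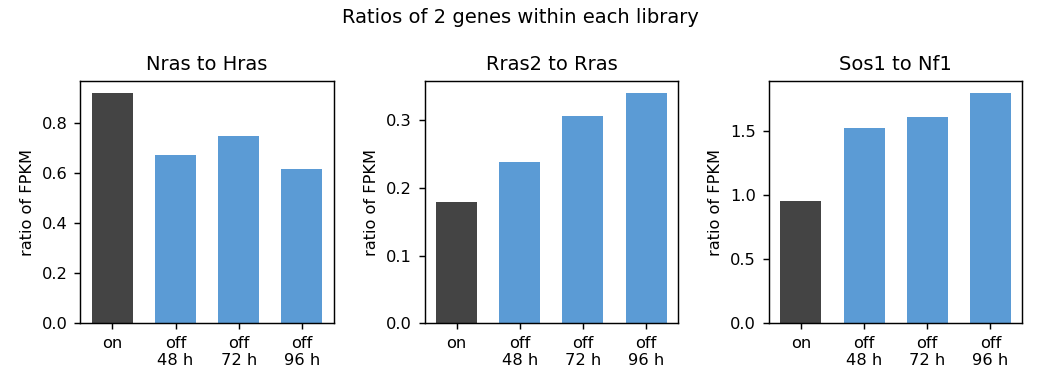
Ratio of the FPKM of 2 genes within each library (vertical axis, from 0, no unit) for Nras to Hras, Rras2 to Rras and Sos1 to Nf1, in the on library (dark) and the 3 off libraries (blue), 1 library per bar. The off bars lie below the on bar for Nras to Hras (0.615 to 0.746 against 0.920) and above it for the other pairs.

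By mean over the 4 libraries the order was Hras (26.04 FPKM), Nras (19.1), Rras (14.9), Sos2 (9.26), Rasa1 (7.47), Rras2 (3.83), Sos1 (3.58), Nf1 (2.52) and Rasgrp1 (0.903 FPKM). Hras was above Nras in 4 of 4 libraries, although their ranges overlapped, and Nras above Rras in 3. The order of Rras2 and Sos1, and of Sos1 and Nf1, held in 3 of 4 libraries with overlapping ranges. Ranges of the other neighbours in this order did not overlap. The authors' deposited table with a combined off value is on a scale of its own, with on values 1.18 times those given here. On the log2 scale, the combined off value of the authors' deposited table differed from on by -0.38 for Nras, 0.06 for Hras, -0.17 for Rras, 0.40 for Rras2, 0.28 for Sos1, -0.01 for Sos2, 0.52 for Rasgrp1, -0.33 for Nf1 and 0.09 for Rasa1.

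The genes whose 3 log2 changes lay closest to those of Nras, among 4141 genes at 0.5 to 2 times its mean level, were Scamp3, Dpm1 and Aspscr1, at Euclidean distances of 0.031, 0.032 and 0.032 over 3 times. For Rasgrp1 they were Akr1c13, D14Ertd668e and Fkbp14, at 0.071, 0.11 and 0.14 among 1465 genes. All these changes share the on library, so likeness over 3 values is a description.

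Around the 9 genes, 111 other genes of Ras regulation were listed by role, with earlier results of these data known, and 91 of them were tested. Of these, 5 rose and 20 fell (5.49% and 22.0%), and their median was -0.26, beside 11.8% up, 15.2% down and a median of -0.08 over all genes tested. With the median change set to 0 the counts were 6 up and 11 down (6.59% and 12.1%), against 13.9% and 11.0% of all genes. Scaling to the sum without globins and short RNAs moved the median of all genes from -0.08 to 0.06. The counts were then 7 and 10 of 92 tested (7.61% and 10.9%), against 15.0% and 9.05% of all genes. Without the 72 h library they were 3 and 14 (3.30% and 15.4%), against 9.23% and 10.2% of all genes, and 9 of the 25 no longer passed. Without the 48 h or the 96 h library more genes passed than with all libraries, both among these genes and over all genes. Each fit without an off library has fewer residual degrees of freedom. The 25 genes named below kept their direction in all 12 alternative fits in which they could be tested, and 10 kept their call in each.

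**Figure D4:**
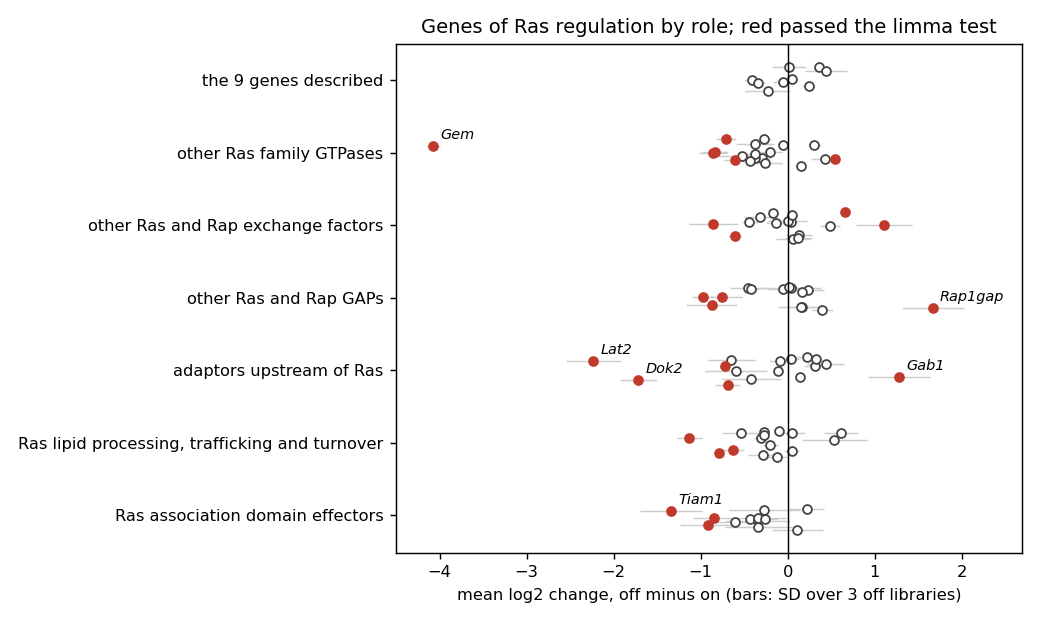
Mean log2 change, off minus on (horizontal axis), of the 9 genes and of 6 lists of other Ras pathway genes, 1 point per tested gene with its SD over the 3 off libraries. Filled red points passed the limma test; none of the 9 genes did, and Gem lies farthest from 0 at -4.07.

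Among 15 tested exchange factors of Ras, Ral and Rap other than Sos1, Sos2 and Rasgrp1, 2 rose and 2 fell, with a median of 0.04. That is 13.3% each way, against 11.8% up and 15.2% down over all genes tested. Both that rose are relatives of Rasgrp1. Rasgrp4, a family member expressed in myeloid and mast cells, went from 11.6 FPKM on to 31.7, 27.7 and 20.3 FPKM, a rise of 1.11 ± 0.32 on the log2 scale (SD, n = 3; limma, adjusted p = 0.0156). Neutrophil markers, led by S100a9 and S100a8, summed to 24735 FPKM on and 43808, 39464 and 28229 FPKM off, and like Rasgrp4 were highest at 48 h and lowest among the off libraries at 96 h. Mast cell and basophil markers, led by Mcpt8 and Gata2, went the other way, from 42.7 FPKM on to 12.2, 9.97 and 9.67 FPKM with 4 of 7 falling and 1 rising, as did the immature myeloid sum. The part of these cells was not tested. Rasgrp3 rose from 2.12 FPKM to 3.95, 4.06 and 3.80 FPKM (0.66 ± 0.04; limma, adjusted p = 0.0234, and 0.0753 without the 72 h library). The Ral exchange factor Ralgds, itself a Ras effector, fell from 6.24 FPKM to 3.33, 3.62 and 2.22 FPKM (limma, adjusted p = 0.0284), and Rasgrf2 fell from 1.28 FPKM to at most 0.561 FPKM (adjusted p = 0.0294), having passed the filter on low values through the on library. With the median change set to 0, none of these exchange factors passed as lower, and after quantile normalization the median of the list was -0.04. Rasgrp2, the most abundant of the list at 35.2 FPKM on, was at 43.0, 38.9 and 34.8 FPKM off and did not pass (limma, adjusted p = 0.648); like Grb2 among the adaptors, it was named after its values were seen.

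Of 14 tested GAPs for Ras, Ral and Rap other than Nf1 and Rasa1, 1 rose and 3 fell, with a median of 0.03. These shares were 7.14% and 21.4%, beside 11.8% and 15.2% of all genes tested. The 3 that fell are Ras GAPs. Rasal3 went from 12.4 FPKM on to 6.48, 5.76 and 5.29 FPKM, -0.97 ± 0.13 on the log2 scale (SD, n = 3; limma, adjusted p = 0.00877). Rasa2 fell from 8.54 FPKM to 4.63, 5.06 and 3.15 FPKM (limma, adjusted p = 0.0295) and Rasa4 from 21.7 FPKM to 15.1, 11.2 and 11.4 FPKM (adjusted p = 0.0357, and 0.122 without the 72 h library). With the median change set to 0, Rasa2 and Rasa4 did not pass (limma, adjusted p = 0.0611 and 0.0737). Rasa3, the most abundant Ras GAP here, was at 41.3 FPKM on and 32.9, 32.3 and 25.1 FPKM off and did not pass (adjusted p = 0.151 in the limma fit), and was singled out after its values were seen. Rap1gap, which acts on Rap and not on Ras, rose from 0.767 FPKM to 3.51, 4.34 and 6.37 FPKM (1.67 ± 0.36, SD, n = 3, with limma adjusted p = 0.00400). Rap1gap passed the filter on low values through the off libraries. It was highest at 96 h, as were the summed erythroid markers. Megakaryocyte and platelet markers, led by Ppbp and Pf4, were highest then too, at 359 FPKM on and 521, 532 and 635 FPKM off. The part of these cells in the Rap1gap level was not tested.

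**Figure D5:**
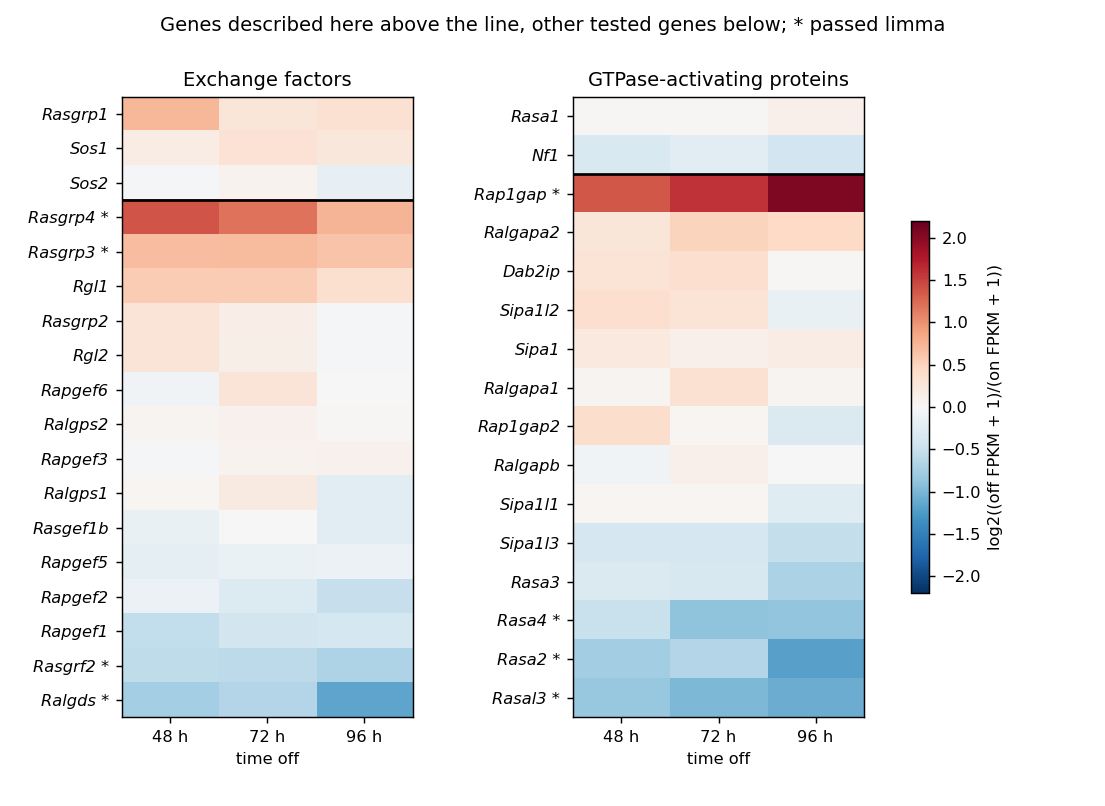
Change on the scale log2((off FPKM + 1)/(on FPKM + 1)) at 48 h, 72 h and 96 h (columns, 1 library each) for exchange factors (left) and GAPs (right), as colour from blue (lower off) to red (higher off). Rows above the black line are the 5 regulators among the 9 genes, rows below are the other tested genes ordered by mean change, and stars mark those that passed the limma test, among them Rap1gap, Rasgrp4 and Rasal3.

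Other GTPases of the Ras family fell in 5 of 19 tested cases and rose in 1, with a median of -0.37. That is 26.3% and 5.26%, against 15.2% and 11.8% of all genes tested. With the median change set to 0, 4 fell (21.05%) and 1 rose, against 11.0% and 13.9% of all genes. Gem, a GTPase of the RGK group that binds calcium channel subunits, went from 42.1 FPKM to 1.44, 1.70 and 1.55 FPKM (-4.07 ± 0.08, SD, n = 3; limma, adjusted p = 1.59e-05). Its relative Rrad fell from 6.89 FPKM to 3.93, 3.41 and 2.98 FPKM (adjusted p = 0.0160 in the limma fit) and Rasl11b from 6.05 FPKM to 3.27, 3.02 and 2.45 FPKM (adjusted p = 0.0145). Nkiras2 and Rhebl1 fell and Rem1 rose, with limma adjusted p of 0.0253, 0.0387 and 0.0391. None of these passed without the 72 h library (0.0959, 0.0530 and 0.109), where their mean log2 changes were -0.72, -0.64 and 0.55. With all libraries those changes were -0.71, -0.60 and 0.55.

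Adaptors that sit between receptors and Ras went both ways: 4 of 16 fell and 1 rose. The shares were 25% and 6.25%, against 15.2% and 11.8% of all genes tested. Their median of -0.10 turned to 0.06 without globins and short RNAs in the scaling and to 0.02 after quantile normalization. Lat2, a scaffold of myeloid and mast cell receptors, fell from 69.5 FPKM to 17.1, 14.7 and 10.8 FPKM (-2.23 ± 0.31, SD, n = 3; limma, adjusted p = 0.00154). The mast cell and immature myeloid sums were lower in the off libraries too, the neutrophil sum was higher, and their part was not tested. Dok2, which recruits p120 RasGAP to receptors and so dampens Ras, fell from 65.6 FPKM to 23.1, 17.7 and 17.5 FPKM (-1.71 ± 0.21; limma, adjusted p = 0.00194). Gab1, a docking protein that binds Grb2, rose from 1.48 FPKM to 3.73, 5.01 and 6.76 FPKM (1.28 ± 0.36; limma, adjusted p = 0.0109), while its relative Gab2 fell from 10.5 FPKM to 6.39, 6.73 and 5.41 FPKM (adjusted p = 0.0320, and 0.0711 without the 72 h library). The ubiquitin ligase Cblb fell too (limma, adjusted p = 0.0194, and 0.0721 without the 72 h library). Grb2, the partner of Sos1 and Sos2 and the most abundant of the list, was at 101 FPKM on and 77.9, 63.2 and 53.3 FPKM off, and did not pass (limma, adjusted p = 0.0794).

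Enzymes of Ras lipid processing, trafficking and turnover fell in 3 of 15 cases and none rose, with a median of -0.27. The share that fell was 20%, against 15.2% of all genes tested, of which 11.8% rose. With the median change set to 0, 2 fell and 1 rose (13.3% and 6.67%), against 11.0% and 13.9% of all genes. The counts were the same after quantile normalization, against 10.5% and 10.7% of all genes. Lypla1, a thioesterase that removes palmitate from proteins including Ras, fell from 25.0 FPKM to 11.0, 12.1 and 9.74 FPKM (-1.13 ± 0.14, SD, n = 3; limma, adjusted p = 0.00529). Its relative Lypla2 and the deubiquitinase Otub1 fell as well (limma, adjusted p = 0.0468 and 0.0167), and neither passed without the 72 h library (0.244 and 0.102). Lypla2 kept its call in 6 of 12 alternative fits. Ras association domain effectors fell in 3 of 12 cases and none rose, with a median of -0.34. They fell in 25% of cases against 15.2% of all genes, and with the median change set to 0 in 8.33% against 11.0%. Tiam1, an exchange factor for Rac that binds Ras, went from 26.5 FPKM to 12.2, 10.7 and 7.20 FPKM (-1.34 ± 0.36, SD, n = 3; limma, adjusted p = 0.00967). Rassf4 and Rassf5 fell (limma, adjusted p = 0.0297 and 0.0249) and did not pass with the median change set to 0 (0.0650 and 0.0529). Of the 10 pan-leukocyte markers, 5 fell and none rose, with a median of -0.84, and their part in these falls was not tested.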

How the data were processed

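The authors deposited FPKM values per gene in 4 tables, each with an on column beside an off column: 48 h, 72 h, 96 h or a combined off value. Per the submitters' processing notes, TopHat2 2.0.4 and Cuffdiff were used with build mm9; no source used here gives the annotation or the strand setting. The on columns of the 3 tables differ by 1 factor per table, and after it at least 99.9% of their 15825 values above 0 agreed within 0.1%; the libraries were joined through that column. Tests used limma 3.58.1 with trend and robust eBayes, in R 4.3.3, on FPKM values after adding 1 and taking log2. Adjustment was by Benjamini-Hochberg over all genes tested. A run on simulated data gave the on library the spread of the off libraries, so it cannot check that assumption. Named genes are the 9 genes, up to 3 genes that passed per pathway list by size of change, and 3 nearest patterns; further pathway genes were named after their values were seen. Of 112 pathway names, 111 matched a row. The members and lists were chosen with earlier results of these data known. Alternatives covered pseudocount, filter, scaling, limma settings, time slope and leaving out each off library.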

Additional observations from a re-analysis of the deposited data

Results flagged for a closer look

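For 3 of the 9 genes the change had one sign at one time and the other sign at another, with 1 library per time and no test of the difference. Hras was 0.24 higher at 96 h and 0.14 lower at 72 h on the log2 scale, so the 72 h value minus the 96 h value was -0.38. Rras was 0.05 higher at 48 h and fell short of the on library by 0.45 at 96 h, a difference of -0.50. Sos2 was 0.07 higher at 72 h and 0.17 lower at 96 h, a difference of -0.24.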

How the results depend on the processing

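No paired analysis was possible because each group holds 1 library and the labels give no replicate numbers. Over 103 alternative fits of the 9 genes, 97 kept sign and side of the threshold. Nras passed with the slope of time (adjusted p = 0.0185), so the count of the 9 that passed was 1 there. It was 0 of 9 without the 72 h or the 96 h library and 0 of 8 without the 48 h library, where Rasgrp1 was below the filter. At a mean of at least 5 FPKM, Rras2, Sos1, Rasgrp1 and Nf1 were not tested. Uncalled signs turned for Hras without the 96 h library (-0.096, against up to 0.092 without another) and for Sos2 with the median change set to 0 (0.032), without globins and short RNAs (0.099), after quantile normalization (0.0083) and without the 96 h library (0.012, against down to -0.11 without another). The 3227 genes called became 2137 at a mean of at least 5 FPKM and 6024 with the slope, and 2300 to 4234 without 1 off library. The 2-fold counts at 48 h, 72 h and 96 h (1155, 1452 and 1824) became 531, 686 and 916 with a pseudocount of 5 FPKM, and 3484, 3915 and 4192 at 1.5-fold. With 0.1 FPKM they became 1807 and 2196 at 48 h and 72 h. The sum without globins was taken without short RNA rows too, a choice made after seeing the data, because these rows hold 17.4% to 80.3% of the summed FPKM. As limits, the on library has no replicate, depth is unknown, and Rasgrp1 was near the filter.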
